A study of Mus musculus with 6 samples.

Results

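The regions described here lie at 9 homeobox genes of the anterior neural plate, forebrain and eye: Otx2, Otx1, Six3, Six6, Lhx2, Rax, Hesx1, Vax1 and Emx2. They are the listed ATAC-seq intervals whose midpoint had an end of one of these genes as the nearest protein-coding gene end, at up to 100 kb. This rule placed 54 of the 91228 intervals of the 2iL list, 75 of the 88810 of the 48 h list and 69 of the 78055 of the 96 h list at the 9 genes. Merged across lists where they overlapped by at least 1 bp, these 198 intervals gave 92 of the 131410 regions of the series.

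ATAC-seq marks open chromatin, since the transposase inserts adapters where DNA is accessible. The material was E14, 1 line of mouse embryonic stem cells from the blastocyst, grown on gelatin in serum-free N2B27 medium. The 2iL group was kept in N2B27 with 2iL, that is LIF plus inhibitors of MEK (PD0325901) and GSK3 (CHIR99021), and is labelled untreated. The 48h and 96h groups were plated as single cells in the same medium and moved the next day to N2B27 without 2iL, where they stayed for 48 h or 96 h. Each group had 2 samples, A and B, but 1 peak list, so there was no spread between samples to measure and no test of a difference between times. Every value below is 1 value per list, and changes are given as sizes only.

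OTX2 is a homeodomain factor that binds many enhancers when naive stem cells move to the formative and primed states, and it later specifies the forebrain and midbrain. SIX3, RAX, LHX2 and SIX6 act together in the eye field and forebrain, HESX1 is a repressor needed for forebrain and pituitary, VAX1 acts in the ventral optic stalk, and EMX2 and OTX1 pattern the cerebral cortex. Such developmental genes typically lie in wide gene-poor surroundings, carry CpG-rich stretches and are controlled by enhancers at a distance.

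Promoter windows of 250 bases before a start, from RefSeq on GRCm38.p6 (mm10), were available for 7 of the 9 genes, 11 windows in all. Those of Six6 and Emx2 and both of Lhx2 were covered over all 250 bases by a listed interval in all 3 lists. Otx2 has 4 windows in the table: 1 was touched over 68 bases at 48 h alone, and the other 3 overlapped no interval in any list. The windows of Six3 and Vax1 also overlapped none, and that of Hesx1, at a start inside the gene, overlapped by 1 base at 96 h. Printed here, to show where listed intervals fell and which motifs they hold, are the Otx2 window that gained an interval at 48 h, chr14:48665110-48665359 on the minus strand, and its outermost window, chr14:48667645-48667894 on the minus strand. With them are 2 windows listed throughout, that of Six6, chr12:72939632-72939881, and that of Emx2, chr19:59458440-59458689, both on the plus strand. Capitals mark TAATCC, the core bound by OTX proteins, or TAATTA, a core shared by many homeodomain factors, on either strand.
Otx2 inner window: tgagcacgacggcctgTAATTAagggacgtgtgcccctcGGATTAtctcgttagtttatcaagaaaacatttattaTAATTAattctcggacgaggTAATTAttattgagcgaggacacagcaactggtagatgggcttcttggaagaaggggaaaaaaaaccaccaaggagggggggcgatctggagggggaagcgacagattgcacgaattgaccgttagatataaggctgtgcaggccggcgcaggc
Otx2 outer window: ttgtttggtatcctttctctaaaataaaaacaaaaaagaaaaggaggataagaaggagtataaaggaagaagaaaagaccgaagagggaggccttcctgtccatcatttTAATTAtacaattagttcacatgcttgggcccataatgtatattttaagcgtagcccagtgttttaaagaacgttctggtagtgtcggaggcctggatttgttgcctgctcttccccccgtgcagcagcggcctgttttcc
Six6 window: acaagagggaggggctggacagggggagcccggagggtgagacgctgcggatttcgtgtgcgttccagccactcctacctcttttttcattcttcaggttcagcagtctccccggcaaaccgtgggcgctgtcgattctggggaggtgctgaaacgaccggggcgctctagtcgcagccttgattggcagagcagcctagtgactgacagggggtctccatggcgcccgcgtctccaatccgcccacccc
Emx2 window: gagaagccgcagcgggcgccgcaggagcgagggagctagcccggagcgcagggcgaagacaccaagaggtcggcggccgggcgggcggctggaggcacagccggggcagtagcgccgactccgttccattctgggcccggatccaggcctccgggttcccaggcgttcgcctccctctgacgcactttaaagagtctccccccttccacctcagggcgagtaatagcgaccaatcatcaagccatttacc
The inner Otx2 window holds TAATCC, read as GGATTA, with its first base 211 bases before the start, and TAATTA at 234, 174 and 154 bases before it. All 4 lie outside the 68 bases nearest the start that the 48 h interval covered. The outer Otx2 window holds TAATTA at 141 bases before its start. These 5 matches were the only ones in the 11 windows for 4 motifs searched on both strands: TAATCC and TAATTA (the latter its own reverse complement, both starting with TAAT), the octamer ATGCAAAT bound by POU factors, and ACAATG, a SOX core. Of 32851 windows of the same length in the table, 6.25% held TAATCC, 4.84% TAATTA, 1.60% ATGCAAAT and 10.7% ACAATG. The listed windows were rich in CpG: Six6 had 62.8% G and C with 17 CpG and Emx2 67.2% with 24, while the inner and outer Otx2 windows had 48.4% with 14 and 42% with 6. The median of all windows was 52.4% with 6.

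Some facts of the whole series bear on these counts. Median deposited folds were 8.29, 8.14 and 8.79 in the 2iL, 48 h and 96 h lists, and every interval had a score of at least 540. Depth was read from the deposited fold and p: solved together as a Poisson tail, they gave a whole number of tags at 100% of summits, over a most frequent background of 14.2, 15.2 and 13.99 tags. Pileups are therefore given below as multiples of that genome background, which puts the 3 lists on 1 scale if it measures depth, which was not tested. Markers of 4 cell types were looked up within 1 kb of a gene end. Of 8 pluripotency markers 6, 8 and 7 had a region in the 3 lists, of 5 endoderm markers 4, 4 and 5, of 5 trophoblast markers 4, 4 and 3, and of 5 fibroblast markers 4, 4 and 4. The pluripotency markers without a region in 2iL were Dppa4 and Esrrb. The share of all genes with such a region is not given here. At these counts, presence of a region did not tell these cell types apart, and a change in the mix of cells cannot be told apart from a change within cells.

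Between 2iL and 96 h, 27 regions were added at the 9 genes and 13 were removed. The 92 regions split into 54 listed in 2iL, 73 at 48 h and 68 at 96 h. Regions in all 3 lists numbered 39, or 42.4%, against 35.9% of all regions of the series. Regions of 2iL alone numbered 6, or 6.52%, against 20.8% of all. Those of both later lists but not of 2iL numbered 16, or 17.4%, against 10.4% of all. The other classes were 7 shared by 2iL and 48 h, 11 of the 48 h list alone, 11 of the 96 h list alone, and 2 that skipped the 48 h list.

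Step by step, the gained shares of the 9 genes lay near those of all regions, and the lost share of the first step lay below. From 2iL to 48 h, 8 of 54 regions (14.8%, exact binomial interval 6.62 to 27.1%) were lost, that is absent from the later list, against 33.2% of all regions of the 2iL list. Over the same step 27 of 73 (37.0%, 26.0 to 49.1%) were gained, against 31.2% of all. From 48 h to 96 h, 18 of 73 (24.7%, 15.3 to 36.1%) were lost, against 30.7%, and 13 of 68 (19.1%, 10.6 to 30.5%) were gained, against 21.2%. The gained shares and the second lost share had intervals that include the share of all regions. Over the whole course 13 of 54 (24.1%, 13.5 to 37.6%) were lost, against 44.9%, and 27 of 68 (39.7%, 28 to 52.3%) were gained, against 35.5%. The intervals are Clopper-Pearson at 95%. They hold for counting error alone and take regions as independent of their neighbours.

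The lost share was lower near the 9 genes than far from them, as it also was over all regions. Within 10 kb of a gene end, 1 of 31 regions (3.23%, 0.0816 to 16.7%) listed in 2iL was gone at 96 h, against 32.4% of all regions at that distance. Over 10 kb away, 12 of 23 (52.2%, 30.6 to 73.2%) were gone, against 53.7% of all. The loss close to a gene was at Otx1, described below. Gains within 10 kb made up 16 of 46 regions (34.8%, 21.4 to 50.2%) of the 96 h list, against 23.9%, and over 10 kb 11 of 22 (50%, 28.2 to 71.8%), against 42.1%. The regions far from the 9 genes thus left the list at nearly the share of all far regions, while those close to them mostly stayed. The limit of 10 kb was chosen after seeing the data.

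**Figure D1:**
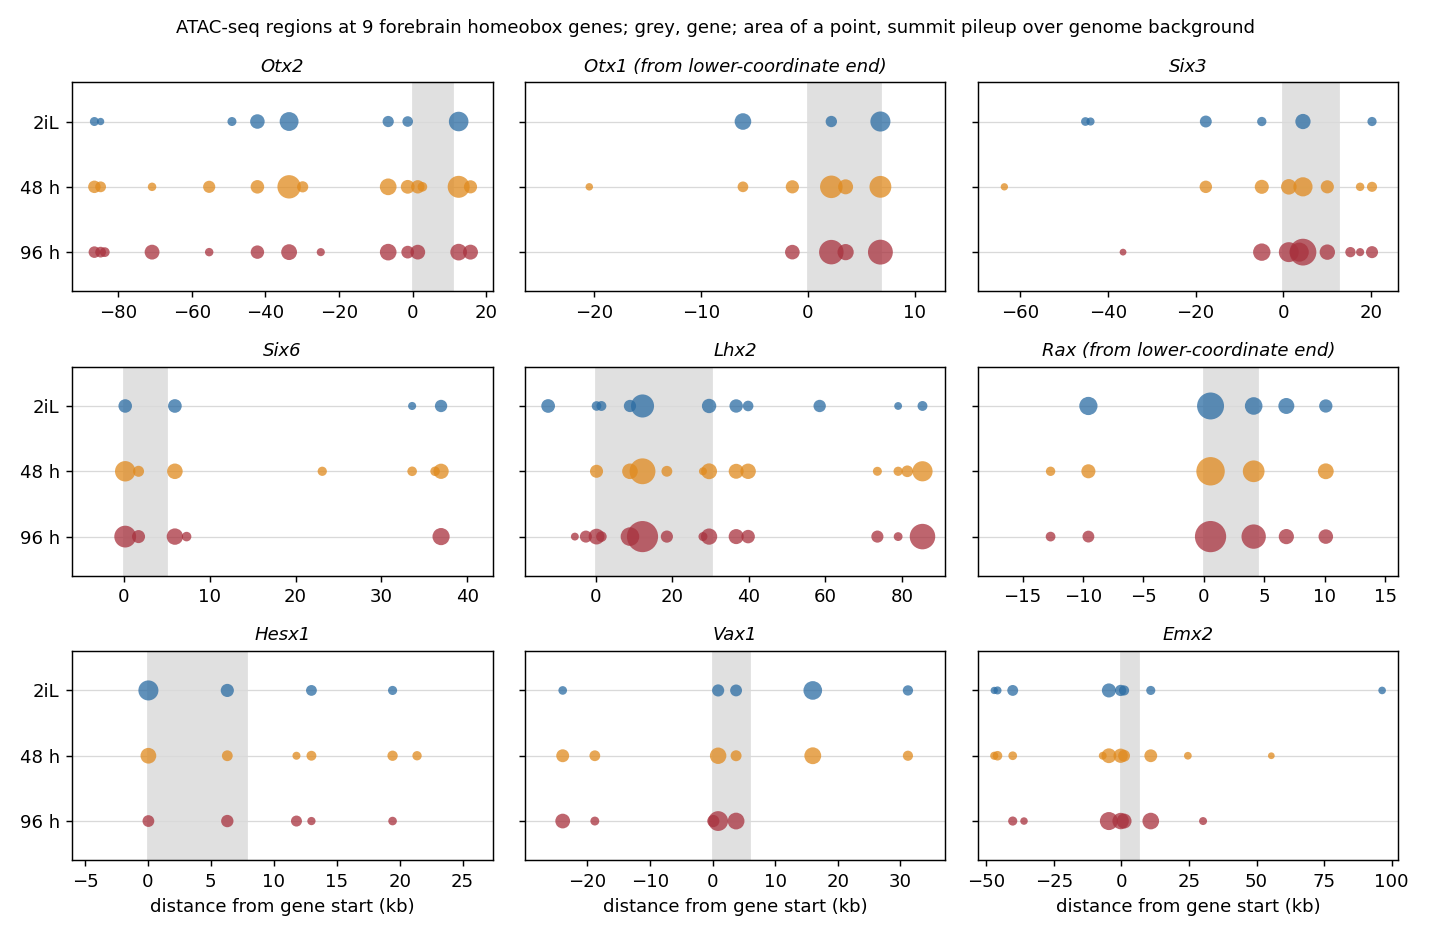
Each point is a listed region, placed by its distance from the gene start in kb (from the lower-coordinate end for Otx1 and Rax, whose strand was not in the sequence table), in the 2iL, 48 h and 96 h lists, with its area growing with the summit pileup over genome background and the gene in grey. Points in and beside the grey bands mostly persist across the 3 rows, while many of those far from a gene appear in 1 row.

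Counted by gene, 7 of the 9 gained more regions than they lost from 2iL to 96 h, against 24.5% of the 18243 protein-coding genes with a region, and 44.8% of those lost more than they gained. The 7 were Otx2, Otx1, Six3, Six6, Lhx2, Rax and Hesx1, with net gains between 1 and 5 regions. With the stronger 50% of each list by −log10 p the count was 4 of 9, against 22.3% of all genes, since Otx1, Six6, Rax and Hesx1 then broke even and Emx2 gained. With genes of every type competing for an interval it was 5, against 23.3%. Vax1 broke even and Emx2 lost 1 on balance, but its sign turns when the lists are made equally long, as given in the closing section. At the first step 8 genes had a net gain, against 32.9% of all, and 0 a net loss, against 33.3%, with Rax unchanged in number. At the second step 3 genes had a net gain, Six3, Lhx2 and Rax, against 17.2% of all, Otx2 had none, and the other 5 had a net loss, against 43.1%.

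**Figure D2:**
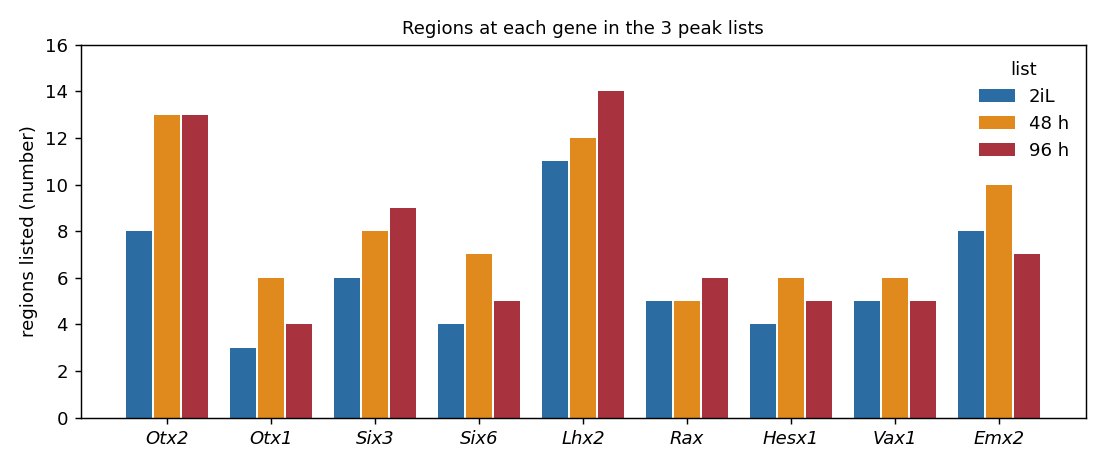
Bars give the number of regions at each gene in the 2iL, 48 h and 96 h lists, with no error bars since each list gives 1 count. Otx2 goes from 8 to 13 and stays there, Lhx2 goes from 11 to 12 and 14, and Emx2 goes from 8 to 10 and back to 7.

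Otx2 (gene ID 18424) spans chr14:48656781-48667644 on the minus strand. Its nearest protein-coding neighbours are Tmem260, 96.6 kb away on the downstream side, and Exoc5, 344.3 kb away upstream. It had 8 regions in 2iL, 13 at 48 h and 13 at 96 h. Of its 16 regions, 7 were in all 3 lists, 1 in 2iL alone, 2 at 48 h alone, 4 at 48 h and 96 h, and 2 at 96 h alone. Equal totals at 48 h and 96 h thus held different sets, with 2 regions lost and 2 gained between them.

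The strongest Otx2 region at 96 h by deposited fold was absent from the 2iL list. It lies 70.8 kb upstream at chr14:48738123-48738680, with a deposited fold of 7.79 at 48 h and 19.9 at 96 h, the latter above 93.5% of the intervals of its list. Its summit pileup was 8.24 times the genome background at 48 h and 28.9 times at 96 h. A neighbour 55.3 kb upstream, chr14:48722469-48723322, took the opposite course, with pileups of 18.8 at 48 h and 8.15 at 96 h and folds of 13.9 and 7.67. Both were listed only after withdrawal, 1 with the higher pileup at the later time and 1 at the earlier.

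The region with the highest Otx2 fold in 2iL and at 48 h was present throughout. It lies 42.1 kb upstream at chr14:48709352-48710265, with deposited folds of 22.1, 14.6 and 15.1 in the 2iL, 48 h and 96 h lists and pileups of 27.6, 23.8 and 23.4. The region 33.5 kb upstream, chr14:48700749-48701660, had its highest pileup in the middle, at 47.8, 74.3 and 33.1, with folds of 15.6, 14.3 and 14.2. The 1 Otx2 region that was lost from 2iL to 96 h lies 49.1 kb upstream at chr14:48716450-48716980, with a fold of 8.95 in 2iL and a pileup of 9.50. The region 29.9 kb upstream, chr14:48697389-48697653, was listed at 48 h alone, with a fold of 3.14 and a pileup of 15.7. Distal Otx2 regions therefore did not share 1 course.

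Within 10 kb of Otx2, both upstream regions had higher pileups after withdrawal. The region 6.90 kb upstream, chr14:48673519-48675090, had pileups of 15.8, 37.1 and 36.7, which is 2.33 times as high at 96 h as in 2iL (1.99 to 2.74, exact interval for counting error). The region 1.36 kb upstream had 13.9, 24.6 and 20.7. Inside the gene, chr14:48665814-48666728 was added at 48 h and kept, at pileups of 23.1 and 28.6, and brought the upstream end of Otx2 within 1 kb of a region at both later times. The region past the other end, chr14:48654526-48655826, had 51.6, 65.6 and 37.0, and its ratio of 96 h to 2iL was 0.716 (0.639 to 0.802). A further region past that end, chr14:48651404-48652530, was added at 48 h and kept, at 22.4 and 29.4. Neither side of Otx2 thus moved as 1, since the regions 33.5 and 42.1 kb upstream also had lower pileups at 96 h than in 2iL.

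**Figure D3:**
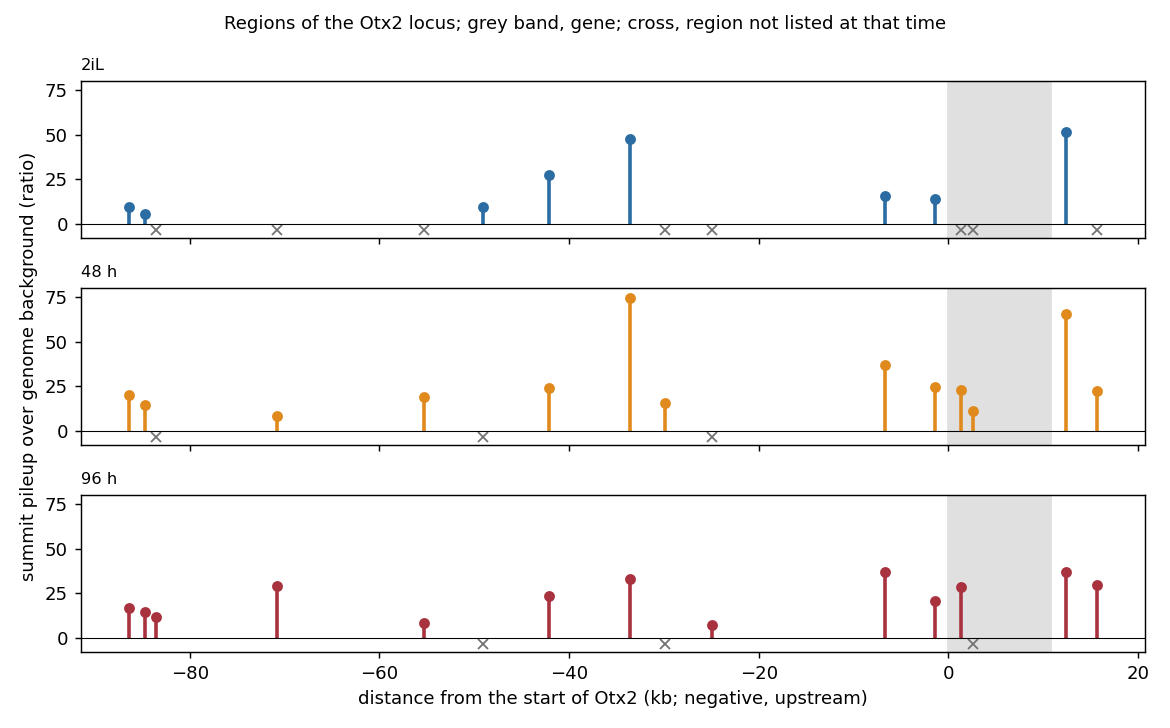
Stems give the summit pileup over genome background (a ratio) at each region of the Otx2 locus against its distance from the gene start in kb, 1 panel per list, and crosses mark regions not listed at that time. The region 70.8 kb upstream is a cross in 2iL and stands at 28.9 at 96 h, while the stem 33.5 kb upstream peaks at 74.3 at 48 h.

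Otx1 (gene ID 18423), the paralogue of Otx2 that acts in cortex and sense organs, spans chr11:21994764-22001651, and its upper end lies 4.17 kb from Ehbp1. It had 3 regions in 2iL, 6 at 48 h and 4 at 96 h. The region inside it at chr11:21996486-21997459 had pileups of 16.2, 69.1 and 81.8, a ratio of 96 h to 2iL of 5.05 (4.38 to 5.85). The deposited fold there was 2.69 in 2iL, above 0.665% of the list, and 5.39 and 5.27 later. At the upper end, chr11:22000787-22002342, pileups were 54.4, 64.8 and 84.4. Around these, regions at chr11:21992768-21993884 and chr11:21998187-21998428 were added at 48 h and kept, with folds at 96 h of 3.04 and 2.25.

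The lost Otx1 region was the strongest of the gene in 2iL by fold. It lies 6.06 kb outside the lower end at chr11:21988403-21989002, with folds of 15.2 in 2iL and 5.75 at 48 h and pileups of 36.6 and 14.2, and it was not listed at 96 h. Its pileup was lower at 48 h than in 2iL, while those of the 2 shared regions in and over the gene were higher at 48 h.

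Six3 (gene ID 20473), which sets the rostral end of the neural plate, spans chr17:85613608-85626191 on the plus strand, 36.5 kb from Six2. It had 6, 8 and 9 regions, with 6 gained and 3 lost from 2iL to 96 h. The region 4.92 kb upstream, chr17:85608046-85609360, had pileups of 10.3, 25.8 and 40.4, a ratio of 3.93 (3.27 to 4.75). The region inside the gene at chr17:85617657-85618521 had 30.6, 49.4 and 98.3, a ratio of 3.21 (2.88 to 3.58). Both were stepwise increases over the 3 lists. Added regions inside the gene at chr17:85614499-85615234 and chr17:85623270-85624009 had pileups of 31.9 and 22.3 at 48 h and 53.6 and 31.2 at 96 h.

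All 3 lost Six3 regions were upstream and over 10 kb away. The strongest, chr17:85595383-85596510, lies 17.6 kb upstream and had folds of 16.9 in 2iL and 18.2 at 48 h, above 91.7% and 93.3% of those lists, before it left the 96 h list. The other 2 had folds of 5.77 and 4.93 and were listed in 2iL alone. The Six3 promoter window, which lies some 7 kb inside the gene as the table draws it, stayed unlisted while regions on both sides of it had higher pileups at 96 h than at 48 h.

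Six6 (gene ID 20476), a retina and pituitary factor, spans chr12:72939882-72944899 on the plus strand. It had 4, 7 and 5 regions in the 2iL, 48 h and 96 h lists. Both its ends had a region within 1 kb in all 3 lists. The region over its start, chr12:72939340-72940753, which covers the promoter window shown above, had pileups of 23.8, 56.3 and 64.5, a ratio of 2.71 (2.39 to 3.08). Its deposited folds, each relative to the local background of its own list, were 15.2, 14.3 and 13.6. The region past the end, chr12:72945213-72946452, had 24.2, 31.8 and 35.7. The highest Six6 fold in each list belonged to a region 31.9 kb downstream, chr12:72976520-72977134, at 18.2, 15.4 and 22.7, the last above 97.3% of its list. A weaker neighbour 28.5 kb downstream, chr12:72973205-72973711, left the list after 48 h, with folds of 6.91 and 5.35.

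Lhx2 (gene ID 16870), a LIM-homeodomain factor required for eye and cortex, spans chr2:38339271-38369737 on the plus strand and had 11, 12 and 14 regions, the most of the 9 genes in 2iL and at 96 h. The region over its start, chr2:38338963-38340071, had pileups of 11.1, 21.9 and 32.9, a ratio of 2.97 (2.48 to 3.59). The region over its inner promoter window, chr2:38350482-38352556, was already the highest of the gene in 2iL, at 72.5, and had 91.4 and 133 later. The highest ratio among the 41 regions shared by 2iL and 96 h at the 9 genes was far from the gene. It lies 54.9 kb downstream at chr2:38423949-38425255, with pileups of 11.9, 55.0 and 89.0 and folds of 8.69, 11.8 and 16.6, a pileup ratio of 7.48 (6.36 to 8.83).

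Losses and gains at Lhx2 both included strong distal regions. The region 12.4 kb upstream, chr2:38326305-38327465, had a fold of 18.7 in 2iL, above 94.9% of that list, and a pileup of 24.4, and was in neither later list. The region 28 kb downstream, chr2:38397274-38398254, had a fold of 12.4 and was also in 2iL alone. In return, chr2:38412390-38413272, 43.1 kb downstream, was added with folds of 8.96 at 48 h and 17.2 at 96 h. At the 3′ end, chr2:38368627-38369172 had pileups of 27, 33.2 and 35.0 and the highest Lhx2 folds of 2iL and 48 h, 20.7 and 17.1.

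Rax (gene ID 19434), the eye-field factor, spans chr18:65934639-65939089 and had 5, 5 and 6 regions. Each of the 5 in 2iL was listed again at 96 h, but 1 of them, chr18:65941074-65941840, was absent at 48 h, when 1 region was added. Its lower-end region, chr18:65934737-65935641, had the highest pileup of the 92 regions in each list, at 99.6, 111 and 134. The upper-end region, chr18:65938054-65939456, had 41.3, 63.9 and 80.9. A region 9.55 kb outside the lower end, chr18:65924458-65925715, had lower pileups after withdrawal, at 44.6, 25.8 and 17.8, a ratio of 0.399 (0.343 to 0.463). Its deposited folds were 11.9, 12.8 and 11.5, over local backgrounds of 3.69, 2.0 and 1.5 times the genome background. The added region, chr18:65921726-65922193, is 12.7 kb outside and had folds of 5.05 and 7.62.

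Hesx1 (gene ID 15209) spans chr14:26994419-27002329 on the plus strand, and its promoter window lies inside the gene. The lower-coordinate end of the gene, which has no promoter window, had less pileup after withdrawal. The region over that end, chr14:26994067-26994864, had pileups of 54.1, 32.7 and 17.5, a ratio of 0.323 (0.279 to 0.374), with folds of 18.4, 17.8 and 15.5. The region bordering the promoter window, chr14:27000361-27001103, had 22.3, 14.5 and 19.5, a ratio of 0.874 (0.741 to 1.03), with folds of 20.9, 13.7 and 18.3. Downstream, chr14:27007084-27007744 had 14.5, 11.9 and 7.72. Each of the 4 regions of 2iL stayed in all 3 lists. Added at 48 h and kept was chr14:27005882-27006568, 3.9 kb past the end, with folds of 6.80 and 12.3, and chr14:27015618-27015987, with a fold of 8.85, was listed at 48 h alone. By number Hesx1 gained, with 4, 6 and 5 regions, while pileup at its lower-coordinate end was lower at each later time.

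Vax1 (gene ID 22326) spans chr19:59164480-59170397 on the minus strand and had 5, 6 and 5 regions. Near its start, chr19:59168992-59170001 had pileups of 18.7, 35.9 and 53.0, a ratio of 2.83 (2.45 to 3.27). Upstream by 23.9 kb, chr19:59193898-59194781 had 8.59, 21.5 and 28.5, a ratio of 3.32 (2.70 to 4.10). Both regions lost from 2iL to 96 h were downstream. The one 10.1 kb past the end, chr19:59153957-59154787, had folds of 20.5 in 2iL and 21.0 at 48 h, each above 97.2% of its list, and was absent at 96 h. The other, 25.3 kb past the end, had folds of 12.2 and 11.9 at the same times.

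Emx2 (gene ID 13797), on the same chromosome at chr19:59458690-59465357 on the plus strand, had 8, 10 and 7 regions and was the gene with a net loss. The regions within 10 kb of it that were in all 3 lists had more pileup at each later time. A region 6.88 kb upstream was listed at 48 h alone, with a pileup of 6.85. Over the promoter window shown above, chr19:59458004-59458842 had 15.9, 26.7 and 35.9, and chr19:59459121-59460262 had 12.5, 18.0 and 29.4. The region 4.07 kb past the end of Emx2, chr19:59468995-59470148, had 9.72, 21.2 and 36.8, a ratio of 3.79 (3.13 to 4.61). Its 3 regions lost from 2iL to 96 h were 45.8, 47.0 and 89.8 kb away, with folds in 2iL of 6.84, 5.33 and 5.92. The most distant of these was also the farthest of all 92 regions, and the 2 closest regions beyond the 100 kb limit, at 111.8 kb from Otx2 and 117.2 kb from Emx2, were at 48 h alone with folds of 6.68 and 4.54.

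Across the 41 regions of the 9 genes that 2iL and 96 h shared, the median ratio of summit pileups was 1.70, against 1.19 for all 49738 shared regions of the series. A ratio of at least 2 was reached by 16 of the 41 (39.0%), against 12% of all, and a ratio of at most 0.5 by 2, against 9.97%. Those 2 were the region over the lower-coordinate end of Hesx1 and the region outside the lower end of Rax. Divided by the median of all shared regions, which is 0.25 on the log2 scale, 11 of the 41 reached 2, against 7.16% of all shared regions scaled in the same way. From 2iL to 48 h the median was 1.44 for 46 shared regions, against 1.06 for all, and 10 reached 2, against 7.62% of all. From 48 h to 96 h it was 1.24 for 55, against 1.08, and 3 reached 2, against 3.57%. The limit of 2, the pileup and local background measures and the 5 kb limit used for the latter were chosen after seeing the data.

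The deposited fold did not show the same differences between lists. For the 41 shared regions its median ratio of 96 h to 2iL was 0.869, against 1.06 over all shared regions. The ratio was above 1 at 14 of the 41 (34.1%), against 58.1%, and at least 2 at 0, against 5.24%. The deposited fold divides the pileup at a summit by a local background, and at the 9 genes that background was mostly higher too. For the 41 shared regions the local background had a median ratio of 2.03 from 2iL to 96 h, with 21 (51.2%) at 2 or more, against a median of 1.01 and 6.5% over all shared regions. At most 0.5 was reached by 2 of the 41, against 6.73%. At the Emx2 promoter region the 226, 405 and 502 tags of the summit stood over local backgrounds of 38.7, 77.2 and 110 tags, and the deposited folds were 5.72, 5.19 and 4.53. The window behind the local background is not given in the sources used here, and whether the tags of the regions themselves raise it was not tested.

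Taken gene by gene, the highest local background within 5 kb of a gene end was given over the genome background, whichever region held it in each list. It was higher at 96 h than in 2iL at 8 of the 9 genes, against 74.97% of all genes. Six3 went from 3.94 to 9.58 and 15.3, a ratio of 3.89, above 99.4% of the 14542 genes with such a value in all 3 lists. Six6 went from 1.97 to 5.83 and 7.11, a ratio of 3.61. Emx2 went from 2.72 to 5.09 and 7.86, Lhx2 from 1.60 to 2.95 and 4.48, Vax1 from 2.89 to 5.20 and 7.99, and Otx1 from 5.97 to 13.5 and 16.3, with ratios between 2.73 and 2.88. These 6 of 9 genes reached a ratio of 2, against 8.33% of all genes, and still did so when divided by the median of all genes, 1.22, against 4.05% of all genes so divided. Rax, which began highest, went from 7.95 to 9.58 and 12.5, a ratio of 1.57. These ratios can compare different places, so an added region can raise them. At Six3, Six6 and Lhx2 the 96 h value lay at a region absent from 2iL. Regions there that 2iL and 96 h shared had ratios of 5.03 and 3.88 at Six3 and 3.40 and 2.30 at Six6. At Lhx2 they had 2.70, 2.74 and 1.65.

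Otx2 and Hesx1 stood apart from these. Otx2 had 5.46, 9.61 and 6.55, so it was highest at 48 h, and its ratio of 96 h to 2iL, 1.2, was above 47.7% of all genes and became 0.984, just below 1, when divided by their median. Hesx1 was lower at each step, at 2.87, 1.78 and 1.16, a ratio of 0.404, above 1.64% of genes. A ratio of at most 0.5 was found at 2.85% of all genes. By 48 h, 3 of the 9 had reached 2, Otx1, Six3 and Six6, against 5.24% of all genes, and from 48 h to 96 h 0 of the 9 did, against 0.344%.

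**Figure D4:**
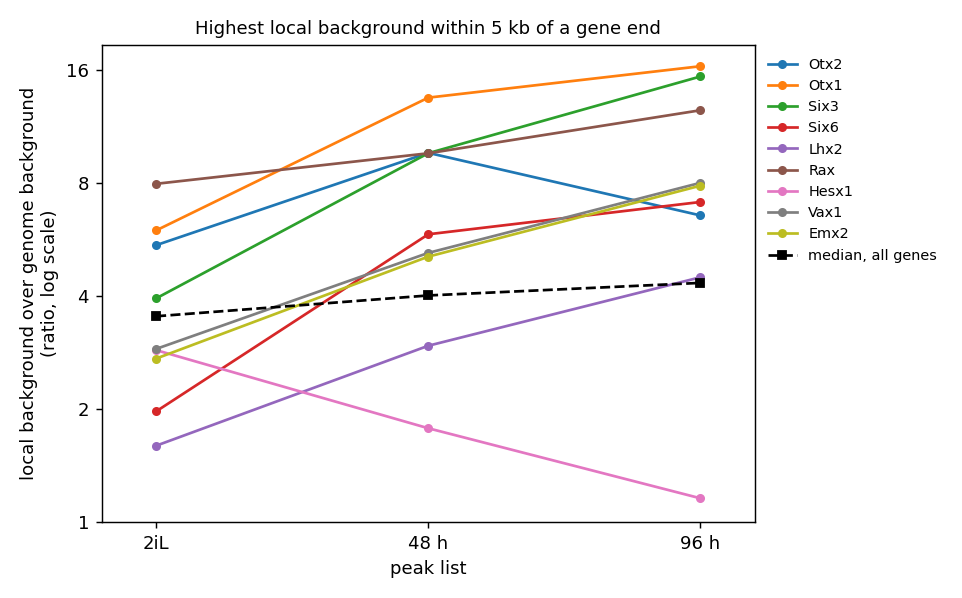
Lines give, on a log axis, the highest local background within 5 kb of a gene end over the genome background, per gene and list, and the dashed line is the median of all genes, which goes from 3.53 to 4.01 and 4.33. Of the 9 lines, 7 go up at both steps, Otx2 is highest at 48 h at 9.61, and Hesx1 descends to 1.16.

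The regions added near the genes had low folds and high pileups. The 16 gained from 2iL to 96 h within 10 kb had a median deposited fold of 3.75, at a median percentile of 5.6 of the 96 h list, and 14 (87.5%) were under a fold of 5, against 42.1% of all regions gained at that distance. Their median pileup was 20.4 times the genome background, over a local background of 5.84. All 8457 regions gained at that distance had a median fold of 5.47, pileup of 11.9 and local background of 1.75. The 11 gained over 10 kb away had medians of 6.67 for fold, 9.29 for pileup and 1.02 for local background, against 7.0, 9.08 and 1 for all such gains. Near the 9 genes, additions were thus high summits over a high local background, and far from them they stood over a local background close to that of the genome. A summit must exceed its local background to be listed, so the high pileups and the high local background are not separate results.

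**Figure D5:**
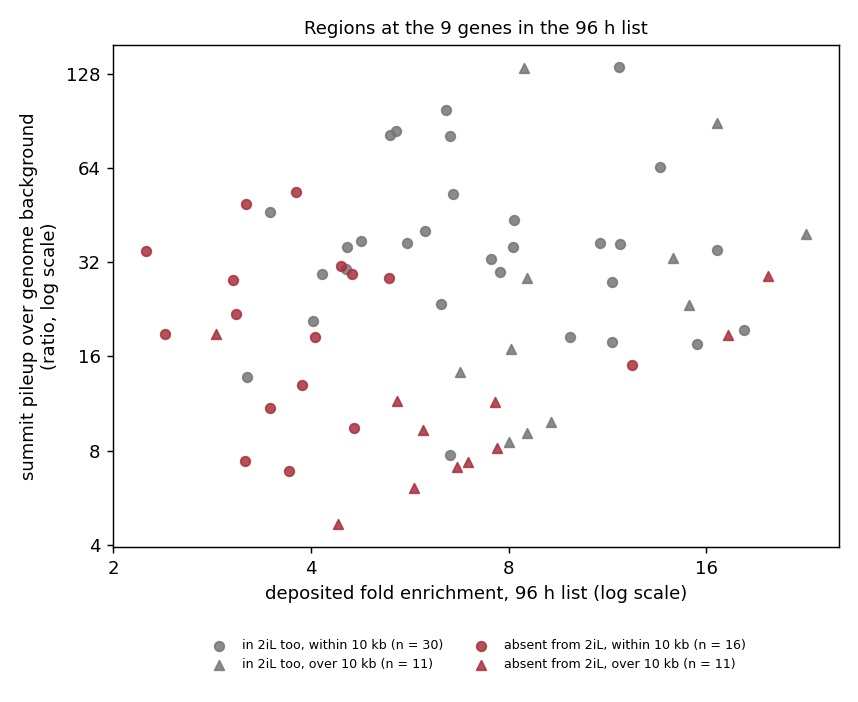
Each point is a region of the 96 h list at the 9 genes, by its deposited fold and its summit pileup over genome background, both on log axes, with colour for presence in 2iL and shape for distance. The 16 red circles, new and within 10 kb, sit mostly left of a fold of 5 at pileups up to 53.6, while red triangles, new and farther away, lie lower and mostly to the right.

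Other genes of the anterior nervous system were counted in the same way. A list of 20 further forebrain and anterior neural genes had 102, 144 and 138 regions. From 2iL to 96 h, 57 of 138 (41.3%) were gained, against 35.5% of all regions, and 21 of 102 (20.6%) lost, against 44.9%. Of these genes 13 had a net gain, against 24.5% of all genes. A local background ratio of 2 was reached by 14 of 20, against 8.33%, with a median of 2.43. Among them the largest net gains were 7 regions at Lhx5 and 6 each at Barhl2, Nkx2-1 and Pax6. A list of 12 midbrain, hindbrain and boundary genes had 117, 148 and 153 regions. Over the same course 76 of 153 (49.7%) were gained, against 35.5% of all regions, and 40 of 117 (34.2%) lost, against 44.9%. There 8 genes had a net gain, against 24.5% of all genes, and 2 a net loss, against 44.8%. A local background ratio of 2 was reached by 8 of 12, against 8.33%. The largest net gains were 12 regions at Lmx1b, 11 at Meis2 and 5 at Irx3. A higher local background at 96 h than in 2iL was found at 19 of the first 20 genes and at 12 of these 12. The share of all genes was 74.97%. These lists share the same 3 peak lists with the 9 genes.

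The genes whose regions were distributed over the 7 presence classes most like those of Otx2 were Syt13, Cep120, Onecut3, Ppp1r16b and Tmem132b. Likeness was the sum of absolute differences in region counts over those classes, among 18242 genes. Syt13 differed from Otx2 by 1 region, with 8, 13 and 12 regions, and the other 4 by 2.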

How the data were processed

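The 3 deposited peak lists, 1 for each of the groups 2iL, 48h and 96h, were used, and each covered samples A and B together per the labels. Tools named in the submitters' processing notes are BWA, Picard, SAMtools and bcl2fastq 2.20.0.422, with mm10 as the build. The sources used here do not give the peak caller, duplicate removal or transposase shift, which can change which weak regions are listed and the fold beside strong ones. Nothing in the labels says whether A and B were separate cultures.

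Each summit has a deposited fold, which is a linear ratio, and a deposited p in −log10 form. Each interval has a deposited score of up to 1000. All 3 are the authors' values, used to describe or rank regions within their own list, except for the ratios of folds between lists given above. Where an interval had several summits, the one with the highest −log10 p stood for it. Genes came from RefSeq GRCm38.p6. The gene table has no exons, so exons and introns were not told apart.

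Summit pileup k and background b were solved from fold = (k + 1) / (b + 1) and the Poisson tail of k, and k was whole within 0.02. Solving, gene assignment and counting were tested on simulated data. Ratios between lists were taken after division by the genome background and have exact conditional binomial 95% intervals for counting error. A region took its highest pileup and its highest local background. Python 3.11.15 with scipy 1.17.1 was used.

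The 9 genes and all lists were chosen with earlier results of these data known. Named for each gene were regions within 1 kb of an end, the highest fold per list, and the lost and gained region of highest fold. Other regions named were chosen after their values were seen. With 1 list a group no test was possible. The files hold 0 unused columns of single samples. Net losses in the list of further forebrain genes are not reported here.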

Additional observations from a re-analysis of the deposited data

How the results depend on the processing

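Restricting each list to the stronger 50% of its intervals by −log10 p left 30, 39 and 41 intervals at the 9 genes in the 2iL, 48 h and 96 h lists, and letting genes of every type compete for an interval left 30, 42 and 39, fewer by construction. With a distance limit of 20 kb, 4 of 36 regions (11.1%) were lost from 2iL to 96 h. Counting as near a gene what lay within 5 kb gave a lost share of 0%, 0 of 22, and 20 kb gave 11.1%. The shares of all regions at the limits of 5 and 20 kb are not given here. For the count of 0, 3 over 22, or 13.6%, was taken as an approximate upper bound, not the exact interval used elsewhere. Every other lost or gained share, under the 7 alternatives of list strength, list length, overlap, distance, summit, window and gene type, stayed within its own interval. The net change of Emx2 from 2iL to 96 h turned from -1 to 1 both with the stronger 50% and with lists of equal length, and that of Rax turned from 1 to -2 when every interval within 50 kb counted; the cause was not tested. The number of genes with more regions at 96 h than in 2iL was 7, but 4 with the stronger 50% of each list, against 22.3% of all genes. It was 8 with lists of equal length, against 32.5%, and 8 with the limit of 20 kb, against 23.5%. With the highest summit it was 7, against 24.9%, and with every gene type 5, against 23.3%. Counting every interval within 50 kb gave 6, and no share of all genes was taken there. Of 54 values for single genes under other settings, 12 moved to or from a net change of 0 and 3 were reversed. The other 39 kept their sign or stayed at 0, though not always their size. Within 2 kb of a gene end, 5 of 8 genes had a local background ratio of at least 2, and Six3 had no value. The share of all genes at that limit is not given here. No paired analysis was possible because each group has 1 list for samples A and B together, and for the same reason no sample could be left out. A region absent from a list was under the authors' threshold there, which need not mean closed chromatin. The weakest listed fold was 1.88, 1.66 and 1.59, and the part of depth in it was not tested.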

Other observations

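Many of the regions lie closer to a noncoding gene than to the homeobox gene they were counted under. When genes of every type were allowed, 45 of the 92 regions had their nearest gene end at a gene that is not protein-coding. At Emx2, 7 regions were nearest to the antisense gene Emx2os and 4 to the lncRNA 2700089I24Rik. At Six3, 4 were nearest to the lncRNA Six3os1, and at Otx2, 2 were nearest to Otx2os1 and 5 to the lncRNA Gm38660. Peak lists carry no strand, so a region between such a pair cannot be told apart as belonging to either.

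Set against the stretch of genome for which each gene is the nearest, regions were densest at Rax and sparsest at Emx2 at 96 h. Rax had 13.6, 13.6 and 16.3 regions per 100 kb in the 3 lists over a stretch of 36.8 kb. Emx2 had 4.90, 6.13 and 4.29 over 163.1 kb, and Otx2 5.03, 8.17 and 8.17 over 159.1 kb. The 9 genes together had 6.62, 8.95 and 8.34 over 815.2 kb.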
